A study of Mus musculus with 6 samples.

Results

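The genes described here are the mesodermal forkhead genes Foxf1, Foxf2, Foxc1, Foxc2, Foxl1, Foxd1, Foxd2, Foxq1 and Foxs1, chosen by name from the count files of mouse tailbuds at embryonic day 9.5. Of these 9 genes, 8 were matched to an identifier among the 37310 in the files. Foxl1 was not matched and is not analysed here. Of the 8, 7 passed the filter on low counts, and Foxs1 did not. Polyadenylated RNA had been sequenced from 3 libraries of embryos homozygous for Danforth's short tail (Sd/Sd) and 3 of wild-type embryos (WT/WT), all on the outbred CD-1 stock. Danforth's short tail is a semidominant mutation, an insertion near Ptf1a, that disturbs the notochord and shortens the tail. Some unnamed libraries pool the tailbuds of 2 embryos, so an Sd/Sd or WT library stands for 1 or 2 embryos of a mixed genetic background.

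Forkhead genes encode transcription factors that bind DNA through a winged-helix domain. Foxf1 and Foxf2 mark the splanchnic lateral plate mesoderm that wraps the gut tube, where hedgehog ligands from the endoderm induce them. Foxl1 is a hedgehog-induced gene of the same gut mesenchyme. Foxc1 and Foxc2 act in presomitic mesoderm, somites, kidney precursors and vessel walls, and hedgehog from the notochord and floor plate is an inducer of Foxc2 in the sclerotome. Foxd1 marks kidney stroma, Foxd2 paraxial and kidney mesenchyme. Foxq1 is known for the satin coat mutation of the mouse and for stomach epithelium, and Foxs1 for sensory neurons and vessel-associated cells, so neither of these is a settled mesodermal hedgehog target.

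The libraries held 41788978 to 62296689 counts. Ptf1a, the gene next to the insertion, had 848, 864 and 959 counts in Sd/Sd replicates 1, 2 and 3, against 5, 2 and 1 counts in WT replicates 1, 2 and 3, which is the order the labels give. With edgeR's quasi-likelihood test and a Benjamini-Hochberg threshold of 0.05, 9 of the 15471 genes tested passed (0.0582%), 6 as higher (0.0388%) and 3 as lower (0.0194%). The labels do not tell whether the libraries of a genotype are of different litters, and the p-values therefore speak only of the spread among these 6. Sd/Sd replicate 3 stood apart in somite genes and in genes of other lists, and its values are given below beside each result that it touches.

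Promoter windows were matched in RefSeq for Foxf2, Foxc1, Foxd1 and Foxd2, 4 of the 9 genes. All 4 are shown because a window was matched, not because of their levels. The Foxd2 window lies upstream of Foxd2, on the side of its neighbour Foxd2os. Each is the 250 bases before the transcription start in GRCm38.p6, read 5′ to 3′ on the gene's strand, with matches to CCAAT on either strand in capitals. The windows are chr13:31625566-31625815 (plus strand), chr13:31806396-31806645 (plus strand), chr13:98353995-98354244 (plus strand) and chr4:114908899-114909148 (minus strand).
Foxf2: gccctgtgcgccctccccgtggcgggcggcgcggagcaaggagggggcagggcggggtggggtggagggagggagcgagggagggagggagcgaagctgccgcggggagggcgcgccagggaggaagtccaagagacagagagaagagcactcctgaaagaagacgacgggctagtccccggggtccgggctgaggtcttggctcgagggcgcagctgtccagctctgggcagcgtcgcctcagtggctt
Foxc1: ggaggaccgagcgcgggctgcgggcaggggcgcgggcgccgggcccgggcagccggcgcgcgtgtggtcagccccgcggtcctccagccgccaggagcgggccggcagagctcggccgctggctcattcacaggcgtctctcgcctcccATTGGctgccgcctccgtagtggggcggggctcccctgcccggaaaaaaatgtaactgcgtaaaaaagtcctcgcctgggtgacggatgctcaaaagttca
Foxd1: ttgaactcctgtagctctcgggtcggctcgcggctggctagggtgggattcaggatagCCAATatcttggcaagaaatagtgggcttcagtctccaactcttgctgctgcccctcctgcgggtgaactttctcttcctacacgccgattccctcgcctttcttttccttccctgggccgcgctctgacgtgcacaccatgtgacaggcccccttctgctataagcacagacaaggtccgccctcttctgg
Foxd2: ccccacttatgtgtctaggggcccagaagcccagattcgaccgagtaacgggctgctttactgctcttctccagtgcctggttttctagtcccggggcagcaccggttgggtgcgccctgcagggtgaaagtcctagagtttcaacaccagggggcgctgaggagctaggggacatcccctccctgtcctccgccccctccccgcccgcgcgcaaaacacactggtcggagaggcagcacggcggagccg
The windows are rich in G and C, with 71.6% in Foxf2, 70.8% in Foxc1, 57.2% in Foxd1 and 64.4% in Foxd2, against a median of 52.4% over all 32851 promoter windows of that length. CCAAT, the CCAAT box, was found in Foxc1 and Foxd1 and is held by 33.8% of all windows. GACCACCCA, the motif that Gli factors of the hedgehog pathway bind, was in 0 of the 4 windows and is held by 0.225% of all. GTAAACA, the forkhead motif, was in 0 of the 4 and 3.17% of all, and TATAAA in 0 of the 4 and 12.4% of all. Both strands were searched for each motif, and none of the motifs contains another. A missing match says only that these letters are not in this window.

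The 8 genes spanned a wide range of levels. The WT means in CPM, here counts divided by the TMM-adjusted library size, per kilobase of exon, were 19.8 ± 3.02 for Foxc2, 11.8 ± 2.25 for Foxf1, 9.34 ± 0.904 for Foxc1, 7.66 ± 0.957 for Foxf2, 4.61 ± 0.707 for Foxd1, 1.21 ± 0.742 for Foxd2, 0.362 ± 0.0515 for Foxq1 and 0.0193 ± 0.0220 for Foxs1 (SD, n = 3). Foxf1 and Foxc1 overlapped in this order over the WT libraries, at 9.30 to 13.6 and 8.75 to 10.4 CPM per kilobase. The other neighbours in the order did not overlap in WT. The narrowest gaps were between Foxc1 and Foxf2 (8.75 to 10.4 and 6.84 to 8.71) and between Foxd2 and Foxq1 (0.423 to 1.89 and 0.305 to 0.406). In Sd/Sd replicate 3 the order was another: Foxf1 led with 14.0 CPM per kilobase and Foxc2 had 5.63, next to 5.61 for Foxc1. Exon lengths come from a later annotation on another build, so these per-length levels are approximate.

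None of the 7 tested forkhead genes passed the threshold. Adjusted p was 1.00 for each of them with edgeR, 0 of 7 passed with DESeq2 (0.220% of all genes called) and with limma-voom (0.0194%), and over these and the other alternatives, 14 in all, the lowest adjusted p of any of the 7 was 0.448. At an unadjusted p under 0.05 there were 2, Foxf2 and Foxq1, both lower in Sd/Sd, against 2.90% of all genes tested in either direction and 1.95% in the lower direction. The same 2 of 7 were lower in every Sd/Sd library than in any WT library, against 4.42% of all genes tested, and 0 of 7 were higher in every Sd/Sd library, against 3.26%. The median log2 fold change of the 7 was -0.04, with 5 negative, and that of all tested genes was 0.00, with 50.1% negative.

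**Figure D1:**
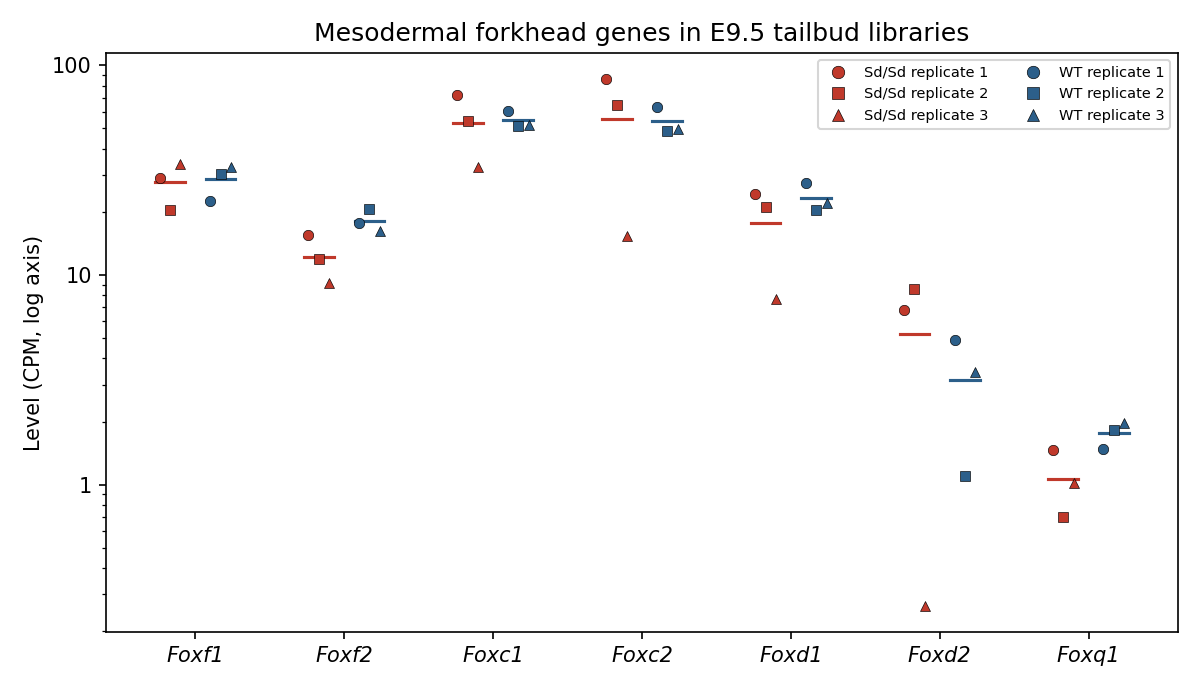
Level of the 7 tested forkhead genes in each library, in CPM on a log axis, with Sd/Sd in red on the left and WT in blue on the right of each gene; marker shapes give the replicate number and bars the group means. Foxf2 and Foxq1 do not overlap between the groups, while Foxc1, Foxc2, Foxd1 and Foxd2 each have their lowest point in Sd/Sd replicate 3 (32.8, 15.3, 7.65 and 0.265 CPM).

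Foxf2 (ENSMUSG00000038402.2, chromosome 13), a factor of gut and palate mesenchyme, was lower in each Sd/Sd library. It measured 15.5, 11.9 and 9.16 CPM in Sd/Sd replicates 1, 2 and 3, against 17.6, 20.6 and 16.2 CPM in WT replicates 1, 2 and 3. The gap between the groups is narrow, since Sd/Sd replicate 1 lies just under WT replicate 3. The group means were 12.2 ± 3.16 CPM in Sd/Sd and 18.1 ± 2.26 CPM in WT (SD, n = 3 each), a log2 fold change of -0.58 (SE 0.19; adjusted p = 1.00 and unadjusted p = 0.0147 in edgeR). Without Sd/Sd replicate 3, the lowest library, the log2 fold change was -0.41 (SE 0.16; adjusted p = 0.860 and unadjusted p = 0.0299 in edgeR), and without WT replicate 2 it was -0.47 (adjusted p = 1.00 and unadjusted p = 0.0603 in edgeR). In a tissue piece, fewer cells of a type and less RNA per cell cannot be told apart.

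Foxf1 (ENSMUSG00000042812.2, chromosome 8), the paralog that is required for lateral and extraembryonic mesoderm, showed no such separation. It measured 28.9, 20.4 and 33.9 CPM in Sd/Sd replicates 1, 2 and 3, against 22.5, 30.4 and 32.8 CPM in WT replicates 1, 2 and 3. The groups overlap almost fully, and Sd/Sd replicate 3, lowest of all 6 for 5 of the 7 genes, is the highest for Foxf1. Its log2 fold change was -0.04 (SE 0.21, adjusted p = 1.00 in edgeR), and it was above 0 without Sd/Sd replicate 2 (0.14) and without WT replicates 2 (0.01) and 3 (0.07). The counts of Foxf2 per count of Foxf1 were 0.535, 0.583 and 0.270 in Sd/Sd and 0.783, 0.677 and 0.492 in WT. These ratios overlap between the groups, with a difference in mean log2 ratio of -0.54 (exact permutation test, 2-sided, p = 0.3, adjusted p = 0.9 over the 3 paralog ratios; the smallest p this design allows is 0.1). Within same-numbered pairs, a pairing that the labels do not state, the ratio was lower in Sd/Sd in 3 of 3 (paired exact permutation test, 2-sided, p = 0.25, the smallest that 3 pairs allow). Without Sd/Sd replicate 3 the difference was -0.20. The 3 paralog ratios were chosen after the values were seen.

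The 2 Foxf genes sit in 2 forkhead clusters. Foxf1, Foxc2 and Foxl1 follow each other on chromosome 8, with Mthfsd, a folate-related gene, between Foxf1 and Foxc2, and Foxq1, Foxf2 and Foxc1 lie in this order on chromosome 13, with predicted genes between them and Gmds, a fucose synthesis gene, next to Foxc1. On chromosome 8, Foxf1 was highest in the library in which Foxc2 was lowest. On chromosome 13, Foxq1 and Foxf2 were both lower in all Sd/Sd libraries, while Foxc1 overlapped between the groups and stood highest in Sd/Sd replicate 1. Mthfsd measured 36.8 ± 0.469 CPM in Sd/Sd and 39.8 ± 2.58 CPM in WT (SD, n = 3 each; log2 fold change -0.11, SE 0.08, adjusted p = 1.00 in edgeR), and Gmds 13.1 ± 1.29 CPM in Sd/Sd and 12.4 ± 1.58 CPM in WT. Fendrr, the long noncoding neighbour of Foxf1, was not matched to an identifier. The annotation also holds Gm20388, a read-through model across Foxf1, Foxc2 and Foxl1, which is listed at 0 in every library, and the treatment of reads in that overlap is a detail not given in the sources used here.

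Foxc1 and Foxc2, factors of presomitic mesoderm and somites, had close group means but were lowest in Sd/Sd replicate 3. Foxc2 (ENSMUSG00000046714.6, chromosome 8) measured 85.7, 64.8 and 15.3 CPM in Sd/Sd replicates 1, 2 and 3, against 63.5, 48.8 and 49.7 CPM in WT replicates 1, 2 and 3. Sd/Sd replicates 1 and 2 lie above all WT libraries and Sd/Sd replicate 3 far below them. The group means, 55.3 ± 36.1 CPM in Sd/Sd and 54.0 ± 8.24 CPM in WT (SD, n = 3 each), hide this split, and the log2 fold change was 0.03 (SE 0.66, adjusted p = 1.00 in edgeR). Without Sd/Sd replicate 3 it was 0.48 (SE 0.16; adjusted p = 0.835 and unadjusted p = 0.0231 in edgeR; 2.10% of all genes were higher at an unadjusted p under 0.05 in that fit), and with the replicate number as a block its sign turned to -0.23. Without one of the other Sd/Sd libraries, or without WT replicate 2 or 3, it lay between -0.43 and -0.02.

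Foxc1 (ENSMUSG00000050295.2, chromosome 13) followed Foxc2 with a smaller swing. It measured 72.3, 54.4 and 32.8 CPM in Sd/Sd replicates 1, 2 and 3, against 60.6, 51.1 and 51.9 CPM in WT replicates 1, 2 and 3. Its log2 fold change was -0.04 (SE 0.29, adjusted p = 1.00 in edgeR) and became 0.21 (SE 0.13) without Sd/Sd replicate 3 and 0.05 without WT replicate 1. Sd/Sd replicate 3 stood at 60.3% of the median of the other 5 libraries for Foxc1 and at 24.2% for Foxc2. Counts of Foxc2 per count of Foxc1 were 1.19, 1.19 and 0.468 in Sd/Sd and 1.05, 0.953 and 0.957 in WT, so the proportion of this pair also differed in that library (exact permutation test of the groups, 2-sided, p = 1).

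**Figure D2:**
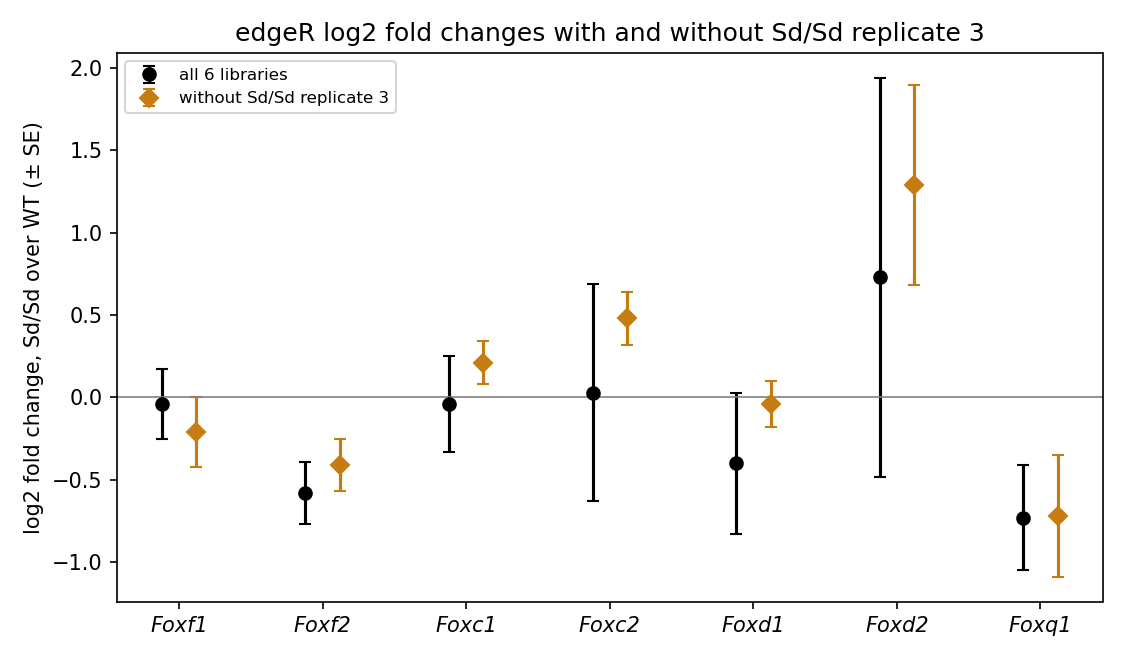
Log2 fold change of Sd/Sd over WT for the 7 tested genes from edgeR, with all 6 libraries (black circles) and without Sd/Sd replicate 3 (orange diamonds); bars are ± 1 SE. Leaving out that library moves Foxc1, Foxc2, Foxd1 and Foxd2 upward (Foxc2 to 0.48, Foxd2 to 1.29) and narrows their errors, while Foxf2 and Foxq1 remain below 0.

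Foxd1 and Foxd2, factors of kidney stroma and paraxial mesenchyme, had the same low library. Foxd1 (ENSMUSG00000078302.3, chromosome 13) measured 24.3, 21.1 and 7.65 CPM in Sd/Sd replicates 1, 2 and 3, against 27.4, 20.5 and 22.1 CPM in WT replicates 1, 2 and 3. Its log2 fold change was -0.40 (SE 0.43, adjusted p = 1.00 in edgeR), and -0.04 (SE 0.14) without Sd/Sd replicate 3. The groups overlap, and the remaining Sd/Sd libraries lie within the WT range.

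Foxd2 (ENSMUSG00000055210.3, chromosome 4) varied more between libraries than any other of the 7 tested genes. It measured 6.77, 8.61 and 0.265 CPM in Sd/Sd replicates 1, 2 and 3, against 4.91, 1.10 and 3.43 CPM in WT replicates 1, 2 and 3. The highest library was 32.5 times the lowest, and within WT alone the highest was 4.48 times the lowest, against 1.19 to 1.46 times for the other 6 tested genes. The log2 fold change was 0.73 (SE 1.21, adjusted p = 1.00 in edgeR), 1.29 (SE 0.61; adjusted p = 0.966) without Sd/Sd replicate 3, 0.15 without Sd/Sd replicate 2, 0.32 without WT replicate 2 and 1.21 without WT replicate 1. It was 0.00 with limma-voom and 0.26 with the replicate number as a block, so its size rests on the choice of model as well. Counts of Foxd2 per count of Foxd1 ran from 0.0347 in Sd/Sd replicate 3 to 0.408 in Sd/Sd replicate 2, against 0.0534 to 0.179 in WT (exact permutation test, 2-sided, p = 0.6).

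Foxd2os, a noncoding opposite-strand gene that lies next to Foxd2 and does not overlap it, had nearly the same profile. It measured 7.01, 9.02 and 0.347 CPM in Sd/Sd replicates 1, 2 and 3, against 4.44, 1.29 and 4.05 CPM in WT replicates 1, 2 and 3. The 6 libraries stand in the same order for both genes (Pearson's r of log2 CPM 0.998 and Spearman's rho 1.00 over 6 libraries, r 0.96 over the 4 without Sd/Sd replicate 3 and WT replicate 2), as a description of points that share libraries and depth. The 250 bases of the Foxd2 window printed above lie on the side of Foxd2 that faces Foxd2os. The log2 fold change of Foxd2os was 0.75 (SE 1.14, adjusted p = 1.00 in edgeR), and moved as that of Foxd2 did, to 0.17 without Sd/Sd replicate 2, 0.36 without WT replicate 2, 1.30 without Sd/Sd replicate 3, 0.31 with the replicate number as a block and 0.07 with limma-voom.

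**Figure D3:**
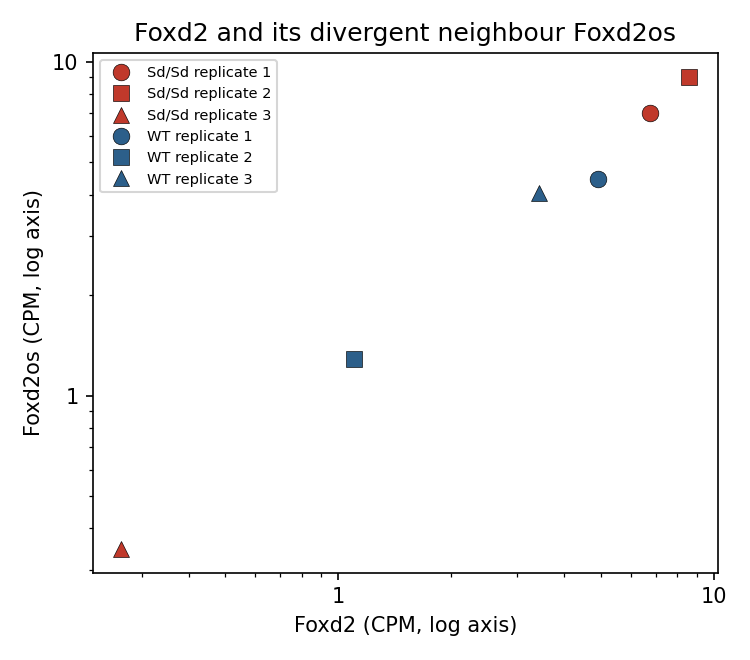
Foxd2os against Foxd2 in each library, both in CPM on log axes, with Sd/Sd in red and WT in blue and marker shapes for the replicate number. The points lie along a line from Sd/Sd replicate 3 (0.265 and 0.347 CPM) to Sd/Sd replicate 2 (8.61 and 9.02 CPM), and the genotypes do not separate.

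Foxq1 (ENSMUSG00000038415.8, chromosome 13) was low throughout, and lower in each Sd/Sd library than in any WT library. It had 60, 44 and 50 counts in Sd/Sd replicates 1, 2 and 3, against 78, 96 and 83 in WT replicates 1, 2 and 3, or 1.46, 0.703 and 1.02 CPM in Sd/Sd against 1.48, 1.82 and 1.97 CPM in WT. Sd/Sd replicate 1 and WT replicate 1 nearly touch. The log2 fold change was -0.73 (SE 0.32; adjusted p = 1.00 and unadjusted p = 0.0495 in edgeR) and lay between -1.02 and -0.50 when single libraries were left out. The unadjusted p was above 0.05 with DESeq2 (unadjusted p = 0.0611, adjusted p = 1.00) and in 5 of the 6 edgeR fits without 1 library, the exception being that without Sd/Sd replicate 1. It was under 0.05 with limma-voom (unadjusted p = 0.0314) and in edgeR with the replicate number as a block (unadjusted p = 0.0451). Neither passed after adjustment. Foxq1 overlaps A530084C06Rik on the opposite strand, and without a stated strand setting their reads cannot be told apart. A530084C06Rik itself had 3 to 21 counts a library.

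Foxs1 (ENSMUSG00000074676.2, chromosome 2) was close to the limit of detection. It had 2, 5 and 3 counts in Sd/Sd replicates 1, 2 and 3, against 1, 3 and 0 in WT replicates 1, 2 and 3. The sums of 10 counts in Sd/Sd and 4 in WT give a ratio of 2.42, with a 95% exact counting interval of 0.697 to 10.6 that covers counting error only. No difference in Foxs1 was detectable at this depth.

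Sd/Sd replicate 3 was the lowest of the 6 libraries for 5 of the 7 genes (Foxf2, Foxc1, Foxc2, Foxd1 and Foxd2), against 24.5% of all tested genes. In 3 of these, Foxc2, Foxd1 and Foxd2, it stood under 50% of the median of the other 5 libraries, which 4.06% of all tested genes did. Without it, Foxc2 and Foxd2 were higher in both Sd/Sd libraries than in any WT library (10.4% of all genes tested), and Foxf2 and Foxq1 were lower in both (10.6%). Foxf2 and Foxq1 were already lower in all 3 Sd/Sd libraries, so leaving it out could not change this. For Foxc2 and Foxd2 the separation appears only because the library that lay below all WT libraries was left out.

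Sd/Sd replicate 3 was also the lowest library for 13 of 23 other tested forkhead genes and 10 of 15 hedgehog pathway genes. The same held for 11 of 12 nephric genes and 9 of 11 neural tube genes. It held for 0 of 13 presomitic and progenitor genes, 4 of 20 lateral plate genes, 2 of 16 endothelial genes and 2 of 10 smooth muscle genes. Genes of somites and sclerotome also moved with that library. The summed level of 17 somite and sclerotome genes was 519, 661 and 126 CPM in Sd/Sd replicates 1, 2 and 3, against 488, 325 and 354 CPM in WT replicates 1, 2 and 3, and 14 of the 16 tested were lowest in Sd/Sd replicate 3. Pax1, the sclerotome gene that depends on notochord signals, measured 4.85 and 19.0 CPM in Sd/Sd replicates 1 and 2 and had no counts in Sd/Sd replicate 3, which allows up to 0.0612 CPM. In WT replicates 1 and 3 it measured 3.53 and 2.89 CPM, with no counts in WT replicate 2 (up to 0.0568 CPM), the WT library in which Foxd2 was lowest. Meox2, a somite homeobox gene, measured 4.54, 13.0 and 0.612 CPM in Sd/Sd replicates 1, 2 and 3, against 4.65, 1.74 and 3.39 CPM in WT replicates 1, 2 and 3. Pax7, which had the smallest p of the list, was not lowest in Sd/Sd replicate 3. It measured 0.995, 3.02 and 1.88 CPM in Sd/Sd replicates 1, 2 and 3. In WT replicates 1, 2 and 3 it measured 0.986, 1.29 and 2.16 CPM. Ripply1, on chromosome X, is at 0 in every library like all identifiers of that chromosome. The part of somite content in the values of the forkhead genes was not tested.

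The other mesoderm lists differed among themselves in that library. The summed level of 12 nephric and intermediate mesoderm genes was lowest there too, at 188, 186 and 124 CPM in Sd/Sd replicates 1, 2 and 3, against 197, 180 and 190 CPM in WT replicates 1, 2 and 3. That of 14 presomitic and progenitor genes, the defining genes of a tailbud, of which 13 passed the filter, was highest there, at 1040, 611 and 1262 CPM in Sd/Sd against 886, 909 and 1152 CPM in WT. The 21 genes of splanchnic and lateral plate mesoderm, the tissue of Foxf1 and Foxf2, summed to 1166, 1060 and 1363 CPM in Sd/Sd and 1172, 1301 and 1208 CPM in WT. These sums overlap between the groups, and their part in the values of Foxf2 was not tested.

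**Figure D4:**
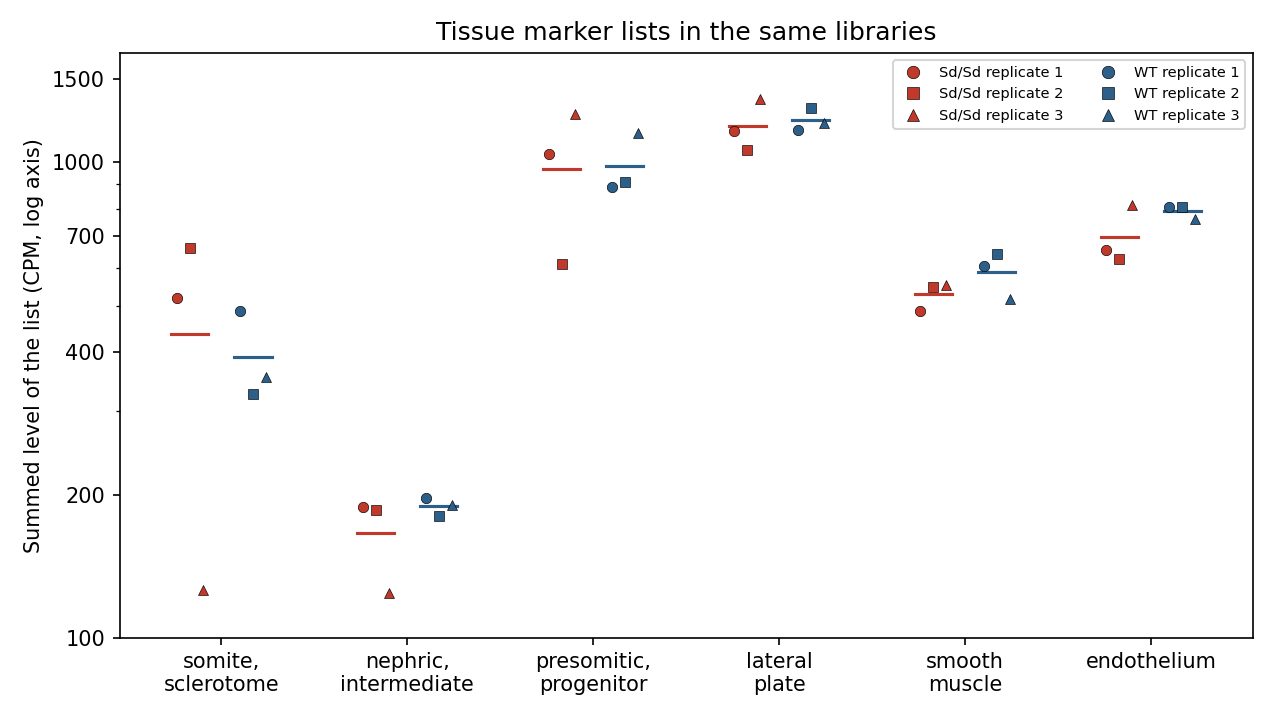
Summed level of 6 marker lists in each library, in CPM on a log axis, with Sd/Sd in red on the left and WT in blue on the right of each list; marker shapes give the replicate number and bars the group means. The somite and nephric sums are lowest in Sd/Sd replicate 3 (126 and 124 CPM), in which the presomitic and lateral plate sums are highest (1262 and 1363 CPM).

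Within those tissue lists no gene passed the threshold. Of 20 tested genes of splanchnic and lateral plate mesoderm, 0 passed with edgeR, DESeq2 or limma-voom, 0 had an unadjusted p under 0.05, and 14 had a negative log2 fold change (median -0.11); those with the smallest p were Twist2 (-0.18), Gata5 (-0.25) and Tbx5 (-0.32). Of 10 smooth muscle genes 0 passed with any of the 3 tools, 2 had an unadjusted p under 0.05 (2.90% of all genes tested) and 8 were negative (median -0.38). Both of those encode contractile or filament proteins of muscle: Des measured 26.7 ± 3.87 CPM in Sd/Sd and 36.1 ± 0.743 CPM in WT (log2 fold change -0.44, SE 0.11, adjusted p = 0.920 in edgeR), and Cnn1 2.29 ± 0.262 CPM in Sd/Sd and 4.57 ± 1.42 CPM in WT (adjusted p = 0.973 in edgeR). As with Foxf2, these 2 were lower in every Sd/Sd library, while Tagln (log2 fold change -0.52, SE 0.30) overlapped between the groups. Tagln was lower in Sd/Sd within all 3 same-numbered pairs, and with the replicate number as a block its adjusted p was 0.0514 in edgeR. The labels do not say that these numbers pair the libraries.

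The lists in which Foxc1 and Foxc2 are known to act gave no call either. Of 16 tested somite and sclerotome genes 0 passed with any of the 3 tools and 0 had an unadjusted p under 0.05; 12 were positive, with a median log2 fold change of 0.29 and of 0.78 without Sd/Sd replicate 3 (Pax1 1.91, Meox2 0.89). Pax1 was at 0.17 without Sd/Sd replicate 2 and at 0.75 with the replicate number as a block. Of 16 endothelial genes 0 passed with any of the 3 tools, 3 had an unadjusted p under 0.05 (2.90% of all genes tested) and 15 were negative (median -0.16), among them Notch4 (-0.39), Dll4 (-0.59), a Notch ligand of arteries, and Sox18 (-0.26). Of 12 nephric and intermediate mesoderm genes 0 passed with any of the 3 tools, 3 had an unadjusted p under 0.05 (2.90% of all genes tested) and 9 were negative (median -0.27, and -0.05 without Sd/Sd replicate 3), among them Pax2 (-0.54), Ret (-0.39) and Gata3 (-0.32).

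Of the hedgehog pathway itself, which gives these genes their grouping, the ligand genes Shh and Ihh were lower in Sd/Sd. Shh fell to 5.38 ± 1.25 CPM in Sd/Sd, against 15.1 ± 1.55 CPM in WT (SD, n = 3 each; log2 fold change -1.49, SE 0.18, adjusted p = 0.0438 in edgeR), and Ihh, the Indian hedgehog ligand, fell to 0.788 ± 0.0440 CPM in Sd/Sd, against 3.00 ± 0.363 CPM in WT (log2 fold change -1.93, SE 0.24, adjusted p = 0.0438 in edgeR). Both lost the call whichever library was left out, with edgeR adjusted p between 0.0615 and 0.317, with limma-voom (Shh at an adjusted p = 0.0860, Ihh at 0.104) and in edgeR without the robust option (Shh at an adjusted p = 0.0785, Ihh at 0.0566). Of 15 tested genes of hedgehog signal and response, these 2 passed as lower (0.0194% of all genes tested), 13 did not pass, and 6 were negative (median log2 fold change 0.02). Of the 15, 4 had an unadjusted p under 0.05 in edgeR (2.90% of all genes tested). Lower in every Sd/Sd library were 3 (4.42% of all genes tested).

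Direct readouts of the pathway did not pass. Ptch1, the receptor that the pathway induces, measured 253, 175 and 170 CPM in Sd/Sd replicates 1, 2 and 3, against 256, 250 and 248 CPM in WT replicates 1, 2 and 3 (log2 fold change -0.34, SE 0.15, adjusted p = 1.00 in edgeR). Gli1, a transcriptional activator that the pathway switches on, measured 82.4, 80.9 and 38.9 CPM in Sd/Sd, against 113, 79.8 and 77.1 CPM in WT (-0.41, SE 0.34, adjusted p = 1.00 in edgeR). Hhip, an induced inhibitor, measured 3.54, 4.09 and 0.918 CPM in Sd/Sd, against 3.51, 2.46 and 2.51 CPM in WT (0.01, SE 0.50, adjusted p = 1.00 in edgeR). The log2 fold change of Gli1 was -0.14 without Sd/Sd replicate 3 and -0.22 without WT replicate 1, and that of Ptch1 was -0.54 without Sd/Sd replicate 1 (adjusted p = 0.103 and unadjusted p = 3.3e-05 in edgeR). Gli1, Hhip and Ptch1 each had their lowest level in Sd/Sd replicate 3, as did Foxc2, Foxf2 and 24.5% of all tested genes. In Sd/Sd replicate 1, Ptch1 (253 CPM) lay within the WT range (248 to 256 CPM). The name hedgehog-responsive rests on background knowledge of these genes and was not tested by this comparison.

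Among 23 tested forkhead genes outside the 9, 0 passed with edgeR and 1 passed with DESeq2 (0.220% of all genes tested). In edgeR 5 of the 23 had an unadjusted p under 0.05 (2.90% of all genes tested). Of the 23, 5 were lower in every Sd/Sd library (4.42% of all genes tested) and 13 had a negative log2 fold change (median -0.01). The smallest p belonged to forkheads of endoderm and midline: Foxa1 measured 5.54 ± 2.04 CPM in Sd/Sd and 13.5 ± 1.88 CPM in WT (log2 fold change -1.28, SE 0.28, adjusted p = 0.755 in edgeR, DESeq2 adjusted p = 8.21e-04), Foxa2 4.26 ± 1.41 CPM in Sd/Sd and 8.06 ± 0.416 CPM in WT (-0.92, SE 0.23, adjusted p = 0.930 in edgeR), and Foxe1, a thyroid factor, 0.724 ± 0.218 CPM in Sd/Sd and 1.65 ± 0.349 CPM in WT (-1.20, SE 0.34, adjusted p = 1.00 in edgeR). None of the 7 mesodermal forkheads had a log2 fold change as negative as these 3, whose difference from them was not tested.

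For each of the 7, the genes of at least 1 CPM whose log2 CPM had the highest Pearson correlation with it over the 6 libraries were listed as a description. With only 6 points that share library and depth, high values are common: 11 genes exceeded 0.99 for Foxc1 and 10 for Foxd2. The 2 leading genes were Ptpn2 (0.997) and Nek1 (0.994) for Foxf1, Nog (0.985) and Zfp800 (0.980) for Foxf2, Auts2 (0.999) and Brd2 (0.998) for Foxc1, Caskin1 (0.998) and Nr2f6 (0.995) for Foxc2, Lrrtm3 (0.997) and Castor2 (0.996) for Foxd1, Foxd2os (0.998) and Zfp503 (0.995) for Foxd2, and Elmod2 (0.989) and Xrcc2 (0.983) for Foxq1.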

How the data were processed

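RNA-seq of polyadenylated RNA from E9.5 tailbuds gave 1 file of raw counts per library, deposited by the authors without normalization. Per the submitters' processing notes, the tools were CASAVA, bcl2fastq 2.17.1.14, STAR 2.5.2b, SAMtools and DESeq2, with mouse build mm9; which program counted the reads, on which strand and with which annotation is information not given in the sources used here. Sample groups come from the labels (3 Sd/Sd, 3 WT). Gene names, chromosomes and exon lengths were taken from GENCODE M21 by identifier, for 32620 of 37310; the rest hold 0.622% of the counts. All identifiers of chromosomes X, Y and M are at 0.

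The 15471 genes that passed filterByExpr (minimum count 10) were tested with edgeR 4.0.16 in R 4.3.3 (TMM, robust quasi-likelihood test, no covariate, 2-sided, Benjamini-Hochberg over all genes tested, threshold 0.05), which was tested on simulated data. The biological coefficient of variation was 18.6%. CPM used TMM library sizes. DESeq2 1.42.0, limma-voom 3.58.1, other scalings and filters, a replicate block and leaving out each library were alternatives. Same-numbered libraries deviated together from their group means (r = 0.194, 0.144 and 0.275). Sd/Sd replicate 2 and WT replicate 1 also did (0.182), more than Sd/Sd replicate 2 and WT replicate 2 (0.144). The labels do not say that the numbers pair the libraries, so pairing was used only as an alternative to the main fit.

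The forkhead genes and all marker lists were chosen with earlier results of these data known. Named are all 9 genes; in the other lists, the genes past the threshold or else up to 3 with the smallest p; Ptch1, Gli1, Hhip, Shh and Ihh; the cluster neighbours; and the 2 genes most correlated with each forkhead gene. The presomitic, neural tube, hindgut, notochord, neural crest and erythroid lists are given as counts and medians. Of their genes only Shh and Ihh, the edgeR calls, are named for those lists. Summed levels are given for the presomitic, hindgut, notochord and erythroid lists.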

Additional observations from a re-analysis of the deposited data

How the results depend on the processing

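None of the 7 forkhead genes passed the threshold under any of the 14 alternatives run, and the replicate block changed no call among them or for Shh and Ihh. The number of genes called over the whole table was 9, against 34 with DESeq2, 14 with no filter, 3 with non-robust dispersions, 3 with limma-voom, 12 with the replicate block, and 2 to 6 when 1 library was left out. Log2 fold changes without 1 library ran from -0.78 to -0.41 for Foxf2, -0.21 to 0.14 for Foxf1, -0.32 to 0.21 for Foxc1, -0.43 to 0.48 for Foxc2, -0.69 to -0.04 for Foxd1, 0.15 to 1.29 for Foxd2 and -1.02 to -0.50 for Foxq1. That of Foxd2 went to 0.00 with limma-voom and 0.26 with the replicate block. That of Foxc2 reversed to -0.29 with limma-voom and to -0.23 with the replicate block. Hhip reversed to -0.21 and -0.18 under the same alternatives and ran from -0.35 to 0.43 without 1 library, and Meox2 from -0.35 to 1.43. The difference in log2 ratio ran from -0.75 to -0.20 for Foxf2 over Foxf1, from -0.40 to 0.27 for Foxc2 over Foxc1 and from -0.22 to 1.56 for Foxd2 over Foxd1. The cause of these reversals was not tested. Of 371 alternative values of the 28 other results, 344 kept direction and side of the threshold, 10 reversed, 16 lost a call (Shh and Ihh) and 1 gained one (Foxa1 with DESeq2). The alternatives for the paralog ratios were chosen after seeing the data.

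Depth limits the genes of few counts: Foxs1 had 0 to 5 counts a library, Foxd2 13 in its lowest library and Foxq1 44.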

Other observations

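The remaining marker lists cover tissues that a tailbud piece could hold besides mesoderm. Of 14 tested hindgut endoderm genes, the tissue that Foxf1-expressing mesoderm surrounds, 14 had a negative log2 fold change (median -0.54), against 50.1% of all genes tested. With edgeR 2 passed as lower (0.0194% of all genes tested), and with DESeq2 5 passed (0.220%). Of the 14, 9 had an unadjusted p under 0.05 in edgeR (2.90%) and 9 were lower in every Sd/Sd library (4.42%). The 15 listed hindgut genes summed to 496, 568 and 684 CPM in Sd/Sd replicates 1, 2 and 3. They summed to 584, 747 and 681 CPM in WT replicates 1, 2 and 3, so the sums overlapped between the groups. Of 11 notochord genes 10 were negative (median -0.45), 1 passed as lower with edgeR (0.0194% of all genes tested) and 2 passed with DESeq2 (0.220%). Of the 11, 5 had an unadjusted p under 0.05 in edgeR (2.90%) and 5 were lower in every Sd/Sd library (4.42%). The 11 genes summed to 243, 203 and 290 CPM in Sd/Sd replicates 1, 2 and 3. In WT replicates 1, 2 and 3 the sums were 291, 304 and 332 CPM, a narrow separation of the groups. The edgeR calls in both lists are those of Shh and Ihh, Shh being in both, which were lost when any 1 library was left out. Of 13 tested presomitic and progenitor genes 0 passed with edgeR, DESeq2 or limma-voom, and 1 had an unadjusted p under 0.05, against 2.90% of all genes tested (median -0.01).

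Of 11 tested neural tube genes 0 passed with edgeR and 1 passed with DESeq2 (0.220% of all genes tested). In edgeR 1 of the 11 had an unadjusted p under 0.05, against 2.90% of all genes tested (median -0.06). Of 8 neural crest genes 0 passed with edgeR and 1 passed with DESeq2 (0.220% of all genes tested). In edgeR 1 of the 8 had an unadjusted p under 0.05, against 2.90% of all genes tested (median 0.06). Of 7 tested erythroid genes 0 passed with edgeR, DESeq2 or limma-voom and 0 had an unadjusted p under 0.05 (median -0.22). Their summed level was 1733, 10021 and 2797 CPM in Sd/Sd replicates 1, 2 and 3, against 4245, 8809 and 3617 CPM in WT replicates 1, 2 and 3. The erythroid sum thus varied within each genotype. Foxf1 and Foxq1 were lowest in Sd/Sd replicate 2, the library with the highest erythroid sum, and the part of blood content in their values was not tested. Of 10 tested genes neighbouring the forkhead clusters 0 passed with any of the 3 tools and 0 had an unadjusted p under 0.05 (median -0.01).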
